A study of Mus musculus with 8 samples.

Results

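C1q-positive skin macrophages were 188 of the 11118 cells that passed the quality limits, out of 26231 barcodes in all. They were chosen by gene content: a barcode with 500 to 4000 genes, at most 20000 UMIs (unique molecular identifiers, 1 per captured transcript) and at most 10% mitochondrial UMIs was kept when at least 2 of C1qa, C1qb and C1qc had 2 or more UMIs. At least 1 of Mrc1, Adgre1, Csf1r and Cd68 had to be detected, Cd207 had to be at 0, and Col1a1, Col1a2 and Col3a1 together had to hold less than 1% of UMIs. The values of these genes chose the cells, so their levels are given below as a description only.

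The cells came from single-cell RNA-seq (10x Genomics, 3′ chemistry) of dorsal skin of female BALB/c mice aged 14 to 16 weeks. There were 2 groups of 4 libraries each, skin injected subcutaneously with PBMCsec, the secretome of irradiated human peripheral blood mononuclear cells, and skin injected with vehicle. No altered allele is named for either group, and the biopsies of both were dissociated with the same enzyme kit. The series' own title concerns mast cells and basophils, and it is not certain that the methods of the paper linked to it, on skin scarring, apply to these libraries. Those methods describe repeated injection into healed excision scars, with saline or medium as controls and tissue taken either when the injections ended or after a further rest, but the labels give neither scarring, control solution nor time for any library. Nothing in the labels says how many mice a library holds, so the tests below measure the spread between libraries, which may be partly technical.

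C1q is the recognition molecule of the classical complement pathway. Its A, B and C chains are encoded by neighbouring genes, and tissue macrophages are a main source of it. In skin, macrophages clear dying cells and debris, handle iron and lipid, and include cells near vessels that carry LYVE1, FOLR2 and CD163 beside cells derived more recently from blood monocytes, which carry more MHC class II.

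The 3 selecting genes lie side by side on mouse chromosome 4 (GRCm38, GENCODE M21). C1qb occupies chr4:136880129-136886187, C1qc chr4:136889804-136893065 and C1qa chr4:136895917-136898803, all on the minus strand. The 250 bases upstream of the RefSeq starts of C1qb and C1qc are printed because these genes define the cells, and those of Ccl8 and Retnla because these were secreted products among the 15 most abundant genes with uneven levels between cells. The sequences are from RefSeq on GRCm38.p6, 5′ to 3′ along the gene, and capitals mark matches on either strand to 1 of 3 motifs. The first was GAGGAA, a form of the purine-rich element bound by the myeloid factor PU.1. The second was GCTGAC, which is part of the element bound by MAF factors. The third was TATAAA, the core promoter element named after its letters. The regions are chr4:136886201-136886450 (minus strand) for C1qb, chr4:136892915-136893164 (minus strand) for C1qc, chr11:82114935-82115184 (plus strand) for Ccl8 and chr16:48842359-48842608 (plus strand) for Retnla. The RefSeq start of C1qc lies inside the longer GENCODE span given above, so part of its region, including the marked GTCAGC, falls within that span. Likewise, the GENCODE span of Retnla starts at chr16:48842551, so the end of its region, including the marked GTCAGC and TATAAA, falls within that span.

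C1qb: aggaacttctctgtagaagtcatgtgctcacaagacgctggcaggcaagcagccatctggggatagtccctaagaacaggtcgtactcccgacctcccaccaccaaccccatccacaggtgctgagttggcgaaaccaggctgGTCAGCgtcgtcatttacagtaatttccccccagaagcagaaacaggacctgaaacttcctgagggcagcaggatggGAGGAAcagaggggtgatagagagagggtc
C1qc: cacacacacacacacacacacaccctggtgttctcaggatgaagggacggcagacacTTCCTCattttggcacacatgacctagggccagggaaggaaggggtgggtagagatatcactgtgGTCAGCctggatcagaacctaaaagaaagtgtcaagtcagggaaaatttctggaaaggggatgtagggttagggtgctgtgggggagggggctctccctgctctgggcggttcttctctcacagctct
Ccl8: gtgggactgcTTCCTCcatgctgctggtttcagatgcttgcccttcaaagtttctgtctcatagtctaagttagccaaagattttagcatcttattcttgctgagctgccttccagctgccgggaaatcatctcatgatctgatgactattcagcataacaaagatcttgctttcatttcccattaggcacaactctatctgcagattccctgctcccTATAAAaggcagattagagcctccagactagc
Retnla: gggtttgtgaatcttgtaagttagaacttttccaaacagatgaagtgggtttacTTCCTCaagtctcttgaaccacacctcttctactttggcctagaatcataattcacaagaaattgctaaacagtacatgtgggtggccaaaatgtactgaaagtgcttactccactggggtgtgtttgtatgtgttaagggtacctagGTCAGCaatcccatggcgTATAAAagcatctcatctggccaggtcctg

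Each of the 4 regions held 1 match to GAGGAA, which was present in 23.2% of all 32851 regions of the same length. GCTGAC matched once in C1qb, C1qc and Retnla and not in Ccl8, against 12.9% of all regions. TATAAA matched once in Ccl8 and Retnla and in neither C1q gene, against 12.4% of all regions. A match is a description of the letters and not evidence of binding.

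The 8 libraries held between 14753926 and 37880651 UMIs. The macrophages numbered 33, 14, 54 and 25 in PBMCsec libraries 1 to 4 and 5, 2, 36 and 19 in vehicle libraries 1 to 4. Vehicle libraries 1 and 2 thus contributed 7 cells between them, and a summed level there rests on 29239 and 11218 UMIs. The median macrophage carried 4586 UMIs and 1751 genes, with 5.88% mitochondrial UMIs, against a median of 7434 UMIs and 4.72% over all cells passing the limits. Across libraries, 78 barcodes recurred, 17 of them passing the limits in more than 1 library, and 0 of them a macrophage in more than 1. Gm42418, Gm17056 and Gm26917 were removed everywhere before levels were computed, which left 24556 of the 29239 UMIs in vehicle library 1.

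The gate gave cells that carried the full set of selecting genes more often than it required. All 3 C1q genes reached 2 UMIs in 161 of the 188 cells, and all 4 of Mrc1, Adgre1, Csf1r and Cd68 were detected in 102. C1qa had a median of 15 UMIs per cell, C1qb 10 and C1qc 8. In CPM (UMIs of a gene scaled to a fixed total of the summed macrophages), C1qa was at 3450, 3425, 4370 and 4740 in PBMCsec libraries 1 to 4 and at 4074 and 4732 in vehicle libraries 3 and 4. The smaller vehicle libraries 1 and 2 were lower, at 2525 and 1755 CPM. The chains kept a narrow ratio over the 6 libraries with at least 10 cells: C1qa UMIs were 1.35 ± 0.0904 times those of C1qb (SD, n = 6) and 1.64 ± 0.175 times those of C1qc (SD, n = 6).

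Mrc1, the mannose receptor, was at 2243 ± 833 CPM over these 6 libraries (SD, n = 6) and was found in 179 cells. Csf1r, the receptor for the survival factor CSF1, was at 860 ± 114 CPM (SD, n = 6), and Adgre1, which encodes F4/80, at 449 ± 101 CPM (SD, n = 6). Cd68, a lysosomal membrane protein, was at 589 ± 184 CPM (SD, n = 6). For comparison, 1103 cells with at least 2 Cd3 UMIs (median 3343 UMIs) were taken where fewer than 2 C1q genes reached 2 UMIs. C1qa was seen in 0.453% of these Cd3 cells and C1qb in 0.181%, against 97.9% and 95.7% of the macrophages. Cells rich in C1q had been left out of the Cd3 cells beforehand, so these values do not measure free RNA.

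Just inside the C1q threshold lay 20 cells whose second-highest C1q count was 2, with a median of 1496 UMIs, and just outside lay 20 cells whose second-highest count was 1, with a median of 2036 UMIs. Pooled C1qa was at 1046 CPM in the former and 442 CPM in the latter, while Mrc1 was detected in 95% and 85% of them. Another 10 cells failed only because they held a Cd207 UMI, and 2 only because of collagen.

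**Figure D1:**
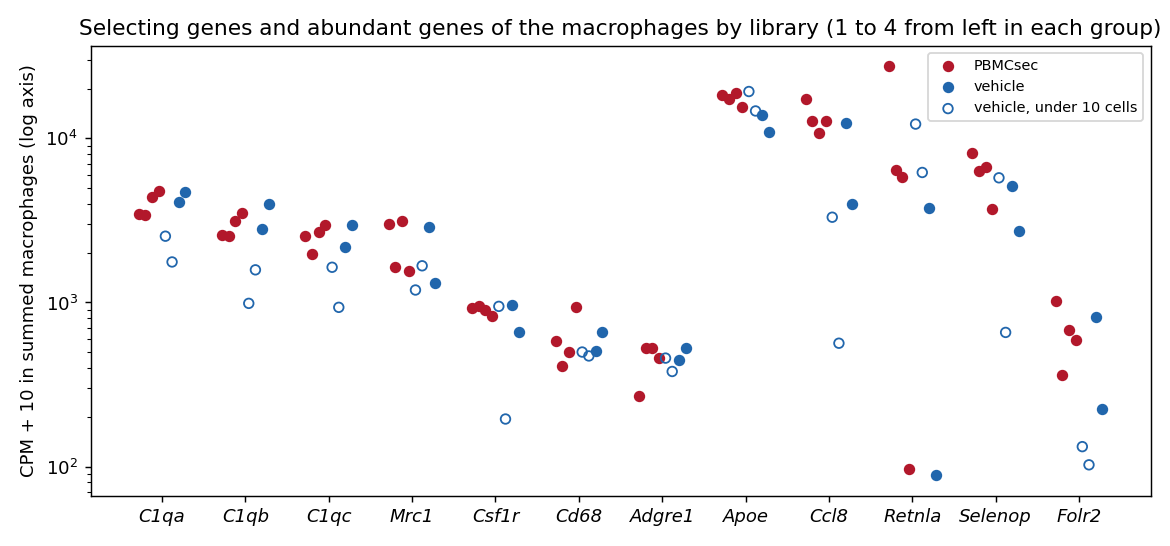
Levels of selecting genes and abundant genes in the summed macrophages of each library, as CPM + 10 on a log axis. Red points are PBMCsec libraries 1 to 4 and blue points vehicle libraries 1 to 4 from left to right, open where a library held fewer than 10 macrophages. C1q genes spread little among the filled points, whereas Retnla was under 100 CPM in both libraries numbered 4.

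Genes that the gate did not read also fitted the label of macrophage. All 18 genes of a macrophage identity list were detected, with a summed pooled level of 39399 CPM in the macrophages against 7222 CPM in all other cells passing the limits. Apoe, a lipid carrier made by tissue macrophages, was the most abundant of them at 18261, 17489, 18786 and 15581 CPM in PBMCsec libraries and 19303, 14690, 13788 and 10911 CPM in vehicle libraries. Lyz2, lysozyme of myeloid cells, was at 7283, 10815, 11863 and 13506 CPM in PBMCsec libraries and at 8430, 6005, 13170 and 12783 CPM in vehicle libraries. The groups overlapped for both genes once all 8 libraries were counted.

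Among the 15 most abundant genes (mitochondrial and ribosomal protein genes left out), Malat1, Tmsb4x, Actb and Tpt1 are general to most cells. The others were Apoe and Lyz2, the MHC class II genes Cd74, H2-Aa and H2-Ab1, the ferritin chains Fth1 and Ftl1, the lysosomal protease Ctsb, the selenium carrier Selenop, the chemokine Ccl8 and the secreted protein Retnla, which is induced by type 2 cytokines. Selenop averaged 5451 CPM over the 6 larger libraries, and its pooled level was 5893 CPM in the macrophages against 116 CPM in Cd3 cells. Fth1 averaged 9738 CPM and Ftl1 9364 CPM, and neither is particular to these cells, with pooled levels of 9504 and 9038 CPM in the macrophages against 3511 and 940 CPM in Cd3 cells. Cd74 was lower in the macrophages, at a pooled 12937 CPM, than in the dendritic-type Cd209a cells (29105 CPM) and the Langerhans-type Cd207 cells (37552 CPM). Both of these classes were required to hold H2-Aa, and both are compared in full further on.

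Ccl8, a chemokine that acts on monocytes and T cells, was detected in 135 macrophages (71.8%) and in 3.54% of the shallower Cd3 cells (median 3343 against 4586 UMIs). Its level was 17366, 12713, 10817 and 12685 CPM in PBMCsec libraries 1 to 4 and 3299, 554, 12355 and 3958 CPM in vehicle libraries 1 to 4. Vehicle library 3 lay within the PBMCsec range, so the groups overlapped. The 10 richest cells held 39.4% of all Ccl8 UMIs.

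Retnla was more uneven still. It was found in 71 macrophages (37.8%), and 10 cells held 56.6% of its 9454 UMIs, with up to 1156 UMIs in 1 cell. In PBMCsec libraries 1 to 4 it was at 27475, 6401, 5820 and 86.4 CPM, and in vehicle libraries 1 to 4 at 12217, 6190, 3744 and 78.5 CPM. The libraries numbered 4 were the lowest of both groups, with 2 positive cells of 25 and 1 of 19, whereas in PBMCsec library 1 Retnla was present in 29 of 33 cells. Retnla thus varied far more between libraries of 1 group than between the groups.

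Most lists of other cell type markers were lower than in the other cells passing the limits. Summed over its list and averaged over the 6 larger libraries, the fibroblast list stood at 1090 CPM, led by Dcn at 440 CPM, the keratinocyte list at 535 CPM, led by Lgals7, and the dendritic cell list at 156 CPM, led by Cd209a. In other cells passing the limits the fibroblast list was at 13015 CPM and the keratinocyte list at 18984 CPM. In pooled CPM, the dendritic cell list was as high in the other cells (164 CPM) as in the macrophages (165 CPM), and the B and plasma cell list was higher in the macrophages (367 against 38.2 CPM). Flt3, Ccr7, Clec9a and Il12b were at 0 in all macrophages, as were the neutrophil genes S100a9, Cxcr2, Retnlg and Ly6g, the B cell gene Ms4a1, and 7 of 8 mast cell and basophil genes. The T cell list reached 45.3 CPM, the endothelial list 49.0 CPM, the red cell list 49.1 CPM, the pericyte list 12.1 CPM, the melanocyte and Schwann list 11.9 CPM, the neutrophil list 101 CPM, the B and plasma cell list 382 CPM, almost all of it Ighm, and the Langerhans list 167 CPM, led by Ltc4s. Dcn rested on few cells: 1 cell of vehicle library 4 held 162 of its 164 UMIs there, and 1 cell of PBMCsec library 3 held 115 of 123. The cell cycle genes Mki67 and Top2a were each seen in 10 macrophages.

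The macrophages were next compared with the dendritic-type cells of the same libraries, 148 cells with at least 2 Cd209a UMIs and H2-Aa but without the C1q content. Both classes were chosen by genes read in the same cells, so the test (edgeR quasi-likelihood, library as a block, 7 libraries with at least 5 cells of each class, Benjamini-Hochberg over 2131 genes) shows only that the gated classes differed by more than the spread between libraries. At an adjusted p under 0.05, 387 genes (18.2%) were higher and 357 (16.8%) lower in the macrophages. In every comparison of gated cells a gene found almost solely in one class passed the count filter through that class and had to differ, so the counts and medians of the gene lists, higher or lower, are given as descriptions of the members tested and support nothing.

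All 12 tested members of the resident perivascular list were higher, with a median log2 fold change of 4.85 against -0.04 over all genes. The other 6 listed members did not enter the test, and members such as Stab1 and Cbr2 passed the count filter through the macrophages. Stab1, a scavenger receptor, was at 442 ± 100 CPM in the macrophages (SD, n = 7) with 467 UMIs, whereas the Cd209a cells held 2 UMIs in all, a ratio of 269 (95% counting interval 74.0 to 2225). Folr2, a folate receptor, averaged 536 CPM against 8.44 CPM (log2 fold change 6.08 ± 0.547 SE, edgeR adjusted p = 2.5e-06) and was higher in 7 of 7 libraries. Hal, histidine ammonia-lyase, was at 804 ± 354 CPM (SD, n = 7) with 3 UMIs in the Cd209a cells, a ratio of 326 (interval 111 to 1584). Cbr2, Gas6 (a bridge to dying cells), Pmp22 and Pf4 were also among the 10 largest rises, as were Ms4a7, Trem2 (a lipid-sensing receptor) and Ccl8, whose log2 fold change was 8.49 ± 0.825 (SE).

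The lysosome and lipid list followed the same direction. Of 21 tested members, 20 were higher and Cd9 was lower, with a median log2 fold change of 1.71. Ctsb averaged 6736 CPM against 596 CPM, Lgmn 2264 CPM against 134 CPM, and Abca1, a cholesterol exporter, 389 CPM against 31.6 CPM. Of 20 listed scavenger and efferocytosis genes 9 were tested, and these were higher, among them Dab2, Lrp1 and Axl, but Stab1, Gas6 (508 UMIs against 10) and Trem2 (430 against 12) entered through the macrophages. Iron and heme genes were higher for 6 of 7 members. Hmox1, the heme oxygenase, was the one that did not pass, at 639 ± 716 CPM in the macrophages and 694 ± 1413 CPM in the Cd209a cells (SD, n = 7; edgeR adjusted p = 0.0907), with the Cd209a cells of PBMCsec library 2 at 3861 CPM.

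Transcription factors were among the rises. Maf was at 977 ± 255 CPM against 32.1 ± 45.6 CPM (SD, n = 7; log2 fold change 5.02). In all, 6 of 15 tested transcription factors were higher and 1, Runx1, was lower. Macrophage identity genes outside the gate were higher for 12 of 17 and lower for 1, Ptprc, with a median of 1.55. Chemokines were higher for 6 of 8 (Ccl2, Ccl6, Ccl8, Ccl24, Cxcl16 and Pf4) and interferon-stimulated genes for 6 of 8, including Ifi27l2a at 1775 CPM against 819 CPM.

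MHC class II genes were lower. Of 8 tested MHC class II genes, 7 were lower and none higher, with a median log2 fold change of -1.28. The Cd209a cells were required to hold H2-Aa, itself a class II gene, whereas 143 macrophages (76.1%) held it without such a requirement. The part of this choice in the difference was not tested. Cd74 averaged 13183 CPM in the macrophages and 29550 CPM in the Cd209a cells and was lower in 7 of 7 libraries. Ciita, the class II transactivator, was at 85.2 CPM against 321 CPM. The 10 largest falls were Sept3, Bcl11a, Cd209e, Ear2, Cytip, Lsp1, Il1b, Napsa, Bri3bp and Ltb4r1. Lsp1, a leukocyte actin-binding protein, fell by 3.92 on the log2 scale (88.3 ± 40.3 against 1342 ± 228 CPM, SD, n = 7). Il1b, the inflammatory cytokine, averaged 50.5 CPM against 879 CPM.

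Other lists were split. Of 7 monocyte-type genes, Cx3cr1 was higher and Ccr2 and S100a4 were lower, with Ccr2 at 564 CPM against 854 CPM. The alternative activation list had Clec10a and Folr2 higher and Ear2 and Mgl2 lower among 5 tested, and Retnla did not pass (7975 ± 9556 against 1013 ± 726 CPM, SD, n = 7; edgeR adjusted p = 0.263). Among complement genes outside C1q, C3ar1 was higher and Itgax and Itgb2 were lower. Of 8 growth factor and matrix genes, Igf1, Sdc3, Tgfbi and Timp2 were higher and Adam8 and Mmp12 lower. Among 11 cytokine receptors, Ifngr1, Il10ra, Il10rb and Tnfrsf1a were higher and Csf2ra, Csf2rb and Il13ra1 lower. Of 16 stress and immediate early genes, Egr1 and Hspa5 were higher and Ier2 lower, and of 5 inflammatory genes Socs3 was higher and Il1b lower. Neither of 2 tested cell cycle genes passed, and of markers of other cell types Ighm was higher and Lgals7 lower. Median mitochondrial content (5.88% against 3.46%) and median UMIs (4586 against 8179) also differed between the classes, and their part in these differences was not tested.

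**Figure D2:**
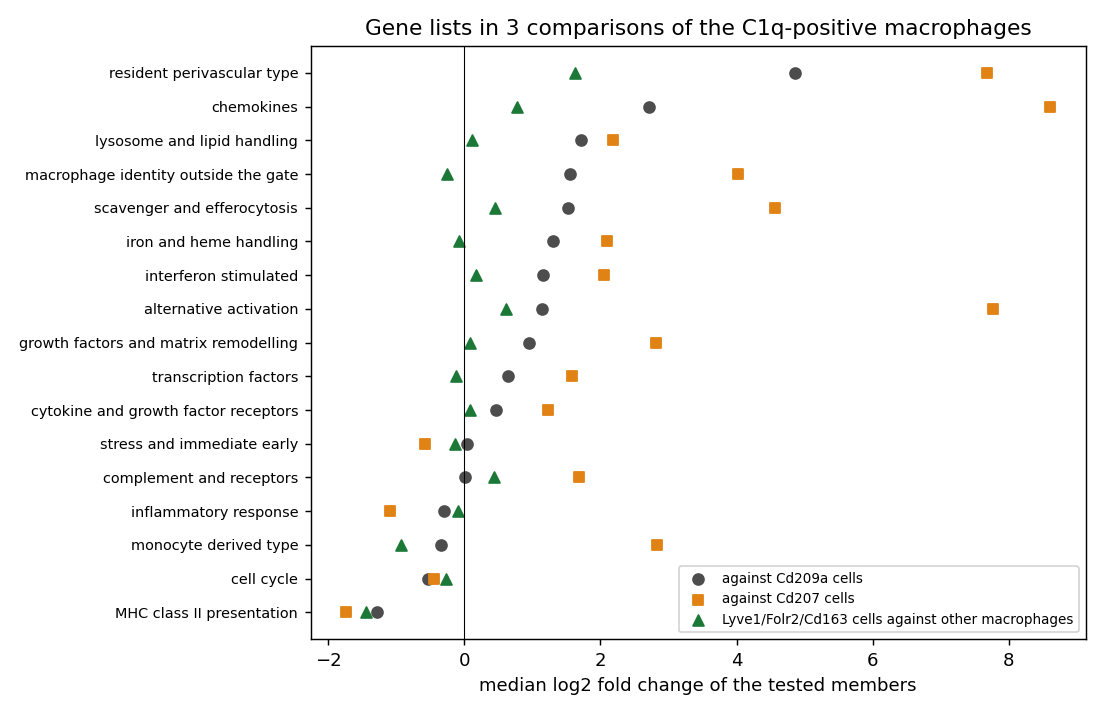
Median log2 fold change of the tested members of each gene list in 3 comparisons. Circles are macrophages against Cd209a cells, squares macrophages against Cd207 cells and triangles the Lyve1/Folr2/Cd163 cells against the other macrophages. MHC class II genes were below 0 in all 3 and resident perivascular genes above 0 in all 3. The Cd209a and Cd207 cells, unlike the macrophages, were required to hold the class II gene H2-Aa.

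Against the 195 Cd207 cells, Langerhans-type cells with at least 2 Cd207 UMIs and H2-Aa but without the C1q content, the differences were larger. Over 6 libraries and 2847 genes, 583 (20.5%) were higher and 600 (21.1%) lower in the macrophages by the same test. Folr2, Stab1, Trem2, Ccl24 (an eosinophil chemokine) and Colec12 (a scavenger receptor) had no UMI in the Cd207 cells of these 6 libraries. Set against a limit of 3 UMIs over the class, Folr2 was at least 352-fold higher, Stab1 at least 244.9-fold, Trem2 at least 233-fold, Ccl24 at least 199-fold and Colec12 at least 174-fold. Ccl8 (10529 UMIs against 3), Retnla, Pf4, F13a1 (a coagulation factor subunit) and Ms4a7 completed the 10 largest rises. Retnla averaged 8237 CPM against 3.75 CPM and was higher in 6 of 6 libraries.

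All 12 tested resident perivascular genes were again higher, several of them tested only because the macrophages hold them, with a median log2 fold change of 7.24 when genes without a UMI in 1 class were placed at that limit (7.68 as fitted). Lysosome and lipid genes were higher for 20 of 22 and lower for Cd9. Interferon-stimulated genes were higher for 8 of 8, iron and heme genes for 8 of 8, alternative activation genes for 5 of 5 tested (12 listed), chemokines for 6 of 7 (15 listed) and scavenger genes for 10 of 11 (20 listed). Folr2, Ccl24, Stab1, Trem2, Ccl8 and Retnla, with 0 to 6 UMIs in the Cd207 cells, are among these and entered through the macrophages. Hmox1 passed here, at 592 ± 773 CPM against 32.0 ± 58.9 CPM (SD, n = 6; edgeR adjusted p = 7.0e-07). Macrophage identity genes were higher for 13 of 16 and lower for Spi1, monocyte-type genes were higher for 4 of 5, including Ccr2 and Fn1, and complement genes for 5 of 8. The 1 lower complement gene was Itgax and the 1 lower scavenger gene Mfge8. Transcription factors were higher for 9 of 15 and lower for 3, growth factor and matrix genes higher for 6 of 9 and lower for Mmp9, and cytokine receptors higher for 8 of 14 and lower for 3.

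In the opposite direction, 9 of 9 MHC class II genes were lower, with Cd74 at 12819 CPM against 37199 CPM. The Cd207 cells were required to hold H2-Aa and the macrophages were not. The part of this choice in the class II difference was not tested. Lower too were the Langerhans genes Cldn1, Epcam, Il1r2, Ltc4s and Mfge8, the 5 of 6 listed that were tested. Such genes mark the Cd207 cells, and Epcam (2248 UMIs against 5) passed the count filter through them. Lpar3, Tmem45b, Igha, Cacna1e, H2-M5, P2rx2, Pcdh7, Fam189a2 and Tcaf2 had no UMI in the macrophages of these libraries, so Lpar3, a lysophosphatidic acid receptor, was at least 73.9-fold lower and Tcaf2 at least 29.6-fold lower. Epcam, an adhesion molecule of Langerhans cells, was at 5.20 CPM against 1563 CPM. Stress and immediate early genes were lower for 7 of 16 and higher for 3, with Hspa1a at 635 CPM against 4246 CPM and lower in the macrophages of all but 1 library. Inflammatory genes were lower for 4 of 7 (Il1b, Il18, Nfkbia and Tnf) and higher for Socs3. Of 6 cell cycle genes, Hmgb2 and Tubb5 were lower. Of markers of other cell types outside the Langerhans list, Ighm was higher and Lgals7 was lower. Mmp9, which is also on the neutrophil list, was lower too. Median mitochondrial content (5.88% in the macrophages against 3.76%) and median UMIs (4586 against 7734) differed from those of the Cd207 cells. Their part in these differences was not tested.

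The macrophages were not uniform. Lyve1 was seen in 23 cells, Cd163 in 54 and Folr2 in 119. After each cell was thinned to 2000 UMIs, 155 cells were deep enough, and 66 of them held at least 2 UMIs of the 3 genes together. These Lyve1/Folr2/Cd163 cells were compared with the others in the 4 libraries with at least 5 cells of each, with the 3 genes left out. PBMCsec libraries 1, 3 and 4 and vehicle library 3 held 15, 20, 8 and 15 such cells beside 14, 22, 14 and 14 others. Of 1496 genes, 39 (2.61%) were higher and 27 (1.8%) lower by edgeR with library as a block. As above, the classes were set by genes of the same cells.

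Of the 18 genes on the resident perivascular list, 12 were tested, the 3 dividing genes being left out. Among these 12, 10 were higher and none lower, with a median log2 fold change of 1.63 against -0.0045 over all genes. F13a1 averaged 2208 ± 420 CPM against 669 ± 290 CPM (SD, n = 4; log2 fold change 1.76, edgeR adjusted p = 0.000675). Cbr2, Fxyd2, Gas6, Ednrb, Selenop, Stab1, Pf4, Wwp1 and Cd209g were the other members that passed. Igf1 did not (534 against 315 CPM, edgeR adjusted p = 0.188). Maf was at 1491 ± 274 CPM against 500 ± 114 CPM (SD, n = 4).

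Several chemokines were higher in the same cells. Ccl8 was at 21613 ± 5117 CPM against 6504 ± 2060 CPM (SD, n = 4; log2 fold change 1.72 ± 0.228 SE) and higher in 4 of 4 libraries. Ccl7, a monocyte chemokine, was at 670 CPM against 165 CPM, and Ccl2, Ccl6 and Pf4 also passed, so 5 of 11 chemokines were higher, while Cxcl16 was lower at 148 CPM against 415 CPM. The 10 largest rises were Cd209d, Cd209g, Rnase2a, Fcna, Rcn3, Fam126a, Ednrb, Ccl7, Hal and Gas6. Cd209d, a C-type lectin, was at 778, 737, 819 and 513 CPM in the 4 libraries, against 51.5, 131, 0 and 95.7 CPM in the other macrophages of those libraries, with no overlap. Clec10a, Dab2, Gas6 and Stab1 were the 4 of 10 scavenger genes that were higher, and the complement receptor C5ar1 was higher too.

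The other macrophages carried more of most MHC class II genes and of Ccr2. H2-Aa was at 8917 ± 1822 CPM in them against 3204 ± 818 CPM in the Lyve1/Folr2/Cd163 cells (SD, n = 4), and Cd74, H2-Ab1, H2-Eb1 and H2-DMb1 shared this direction, so 5 of 7 MHC class II genes were lower in the latter, with a median log2 fold change of -1.45. Ccr2, the receptor that draws monocytes into tissue, was at 826 ± 144 CPM against 135 ± 100 CPM (SD, n = 4). It was the only 1 of 5 monocyte-type genes that passed. Cd52 (737 against 66.7 CPM), Rgs1, Cd300c2, Lyz1, Clec12a, Axl, Cd72, Mpeg1 and Lpl were the other largest falls. Rgs1 rested on 66 UMIs against 2.

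Some genes did not pass between these subsets, and some lists held no call or few. Apoe (17409 against 15636 CPM, edgeR adjusted p = 0.802) and Retnla (9248 ± 14961 against 7885 ± 10102 CPM, SD, n = 4; edgeR adjusted p = 0.785) did not pass, and Retnla was higher in the Lyve1/Folr2/Cd163 cells of 3 of 4 libraries. No gene passed among the 7 interferon-stimulated, 6 iron, 2 inflammatory, 9 receptor and 1 cell cycle genes tested. Of 19 lysosome genes only Lpl did, while 4 were higher and 4 lower at an unadjusted edgeR p under 0.05. Over all 1496 genes 2.61% were higher and 1.8% lower, and at those shares lists this short would hold few calls. Maf was the 1 of 12 transcription factors that passed, and Ltc4s, a leukotriene synthase listed with Langerhans genes, was higher. Of the identity list, Maf and Pf4 were higher and Lyz2 lower. Clec10a was the 1 alternative activation gene, Timp2 the 1 growth factor and matrix gene and Atf3 the 1 stress gene, the last being lower. C1qa itself, which selected the cells, was at 4601 CPM against 3764 CPM and Mrc1 at 3593 CPM against 1933 CPM, given with no test.

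**Figure D3:**
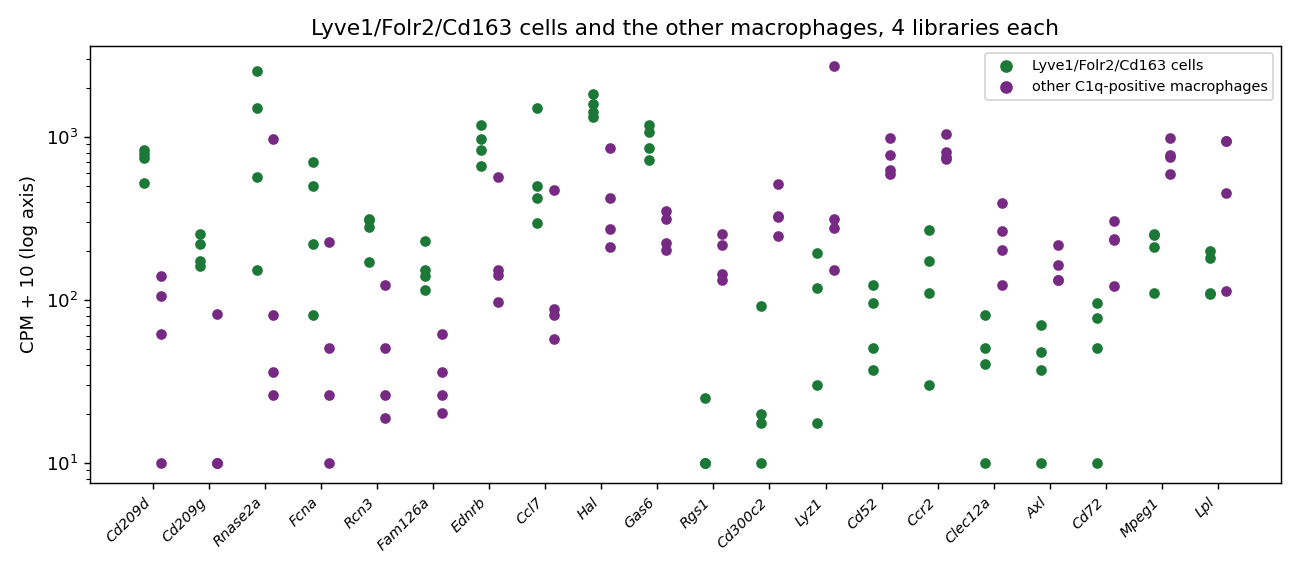
The 10 largest rises and 10 largest falls between the Lyve1/Folr2/Cd163 cells (green) and the other C1q-positive macrophages (purple), each point 1 library, as CPM + 10 on a log axis. Cd209d separated fully between the subsets in the 4 libraries, and Lpl overlapped.

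The comparison of PBMCsec with vehicle asks whether the injected secretome altered these cells. The macrophages made up 3.06, 2.65, 2.13 and 1.56% of cells passing the limits in PBMCsec libraries 1 to 4 and 1.57, 0.489, 1.24 and 1.09% in vehicle libraries 1 to 4. PBMCsec library 4 and vehicle library 1 crossed, the latter with 5 cells and a 95% exact (Clopper-Pearson) interval of 0.512 to 3.63%. The means were 2.35 ± 0.646% and 1.10 ± 0.453% (SD, n = 4 each), a difference of 1.25 percentage points. By an exact two-sided permutation test the p-value was 0.057, and 0.114 after Benjamini-Hochberg adjustment over the 2 shares tested, so the difference did not pass. The intervals cover counting error only.

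The direction held under other gates. With all 3 C1q genes required the difference was 1.04 percentage points, and with a mitochondrial limit of 5% it was 0.911, each with an unadjusted exact permutation p of 0.0286, the smallest that 4 against 4 libraries allow. Adjusted over both shares as above, the former is 0.057 and does not pass, and for the latter the second share could not be computed. Within libraries numbered 3 and 4, where most cells lay, the difference was 0.682, and within those numbered 1 and 2 it was 1.82. Barcodes over the mitochondrial limit also held C1q-positive profiles, 126 in all, at 2.37 ± 1.56% of such barcodes with PBMCsec and 1.49 ± 1.26% with vehicle (SD, n = 4 each). More macrophages and fewer other cells cannot be told apart in a share.

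**Figure D4:**
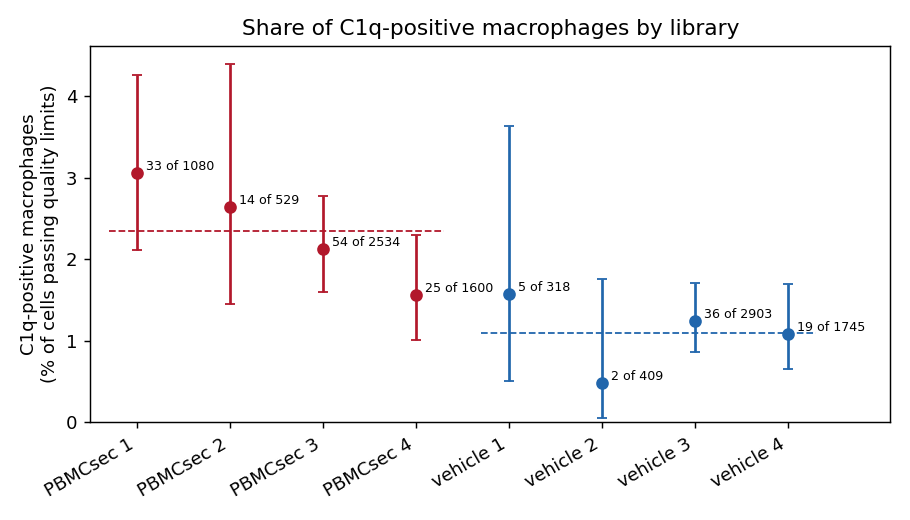
Share of C1q-positive macrophages among cells passing the quality limits in each library, with exact 95% binomial intervals and the counts beside each point. Dashed lines are group means, 2.35% and 1.10%. The PBMCsec libraries lay above the vehicle libraries except for library 4, which was level with vehicle library 1.

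The balance of the 2 subsets was variable within each group. Lyve1/Folr2/Cd163 cells were 51.7, 21.4, 47.6 and 36.4% of thinned macrophages in PBMCsec libraries 1 to 4 and 51.7 and 25% in vehicle libraries 3 and 4. The groups overlapped. The difference of 0.922 percentage points had an exact two-sided permutation p of 1, and with 4 against 2 libraries no p under 0.133 was possible. Intervals within a library were wide, 32.5 to 70.6% for vehicle library 3, and no shift of any size could have passed the threshold in this design. Without thinning the difference was 7.75 percentage points. The thinned difference turned to -0.414 with all 3 C1q genes required. It was -3.23 without PBMCsec library 1, -1.86 without PBMCsec library 3, -12.4 without vehicle library 4 and 14.3 without vehicle library 3.

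For gene levels, 6 libraries held at least 10 macrophages (PBMCsec 1 to 4, vehicle 3 and 4). edgeR tested 2677 genes and called 0 of them (0.0%) after adjustment. Without adjustment, 79 genes (2.95%) were higher and 32 (1.2%) lower with PBMCsec at p under 0.05. DESeq2 called 1 gene, Ccl4, as did limma on log2(CPM + 10) of each library's mean over cells, in which every cell weighs the same. The 4 PBMCsec and 2 vehicle libraries did not overlap for 169 higher (6.31%) and 167 lower genes (6.24%). In data simulated on these libraries, 78.3% of 4-fold and 10.5% of 2-fold changes were recovered, so most 2-fold changes would be missed at this size. In the measured data, Ccl4, Hk2, Hsph1 and Hmox1 had edgeR log2 fold changes of 5.60, 3.20, 2.83 and 2.47 and were not called. What share of 4-fold changes would be found in the measured data was not tested.

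Ccl4, a chemokine for monocytes and T cells, had the smallest p of the rises that edgeR did not call. Its level was 2457, 927, 475 and 223 CPM in PBMCsec libraries 1 to 4 and 0, 0, 28.1 and 11.2 CPM in vehicle libraries 1 to 4 (log2 fold change 5.60 ± 1.14 SE, edgeR adjusted p = 0.997). The 4 PBMCsec libraries were above vehicle libraries 3 and 4, as the choice of the gene required. The zeros of vehicle libraries 1 and 2 lie under limits of 122 and 277 CPM (3 UMIs), the latter above PBMCsec library 4. The signal came from few cells: 11 of 33, 4 of 14, 9 of 54 and 2 of 25 macrophages in PBMCsec libraries held a UMI, against 0 of 5, 0 of 2, 1 of 36 and 1 of 19 in vehicle libraries. Without the richest cell of each library, Ccl4 was at 1101.5, 81.4, 308 and 7.33 CPM in PBMCsec libraries 1 to 4. Vehicle libraries 1 to 4 were then all at 0 CPM. Cd3 cells held Ccl4 at 330, 44.04, 165 and 17.1 CPM in PBMCsec libraries and 5.03, 36.05, 70.01 and 11.3 CPM in vehicle libraries. Cd209a cells held it at 12.8, 288, 543 and 0 CPM and at 18.2, 117, 0 and 65.04 CPM. The groups overlapped in both classes.

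Hmox1, which degrades heme, was spread over more cells. It was at 2130, 918, 619 and 274 CPM in PBMCsec libraries 1 to 4 and at 163, 92.4, 176 and 191 CPM in vehicle libraries 1 to 4 (log2 fold change 2.47 ± 0.733 SE, edgeR adjusted p = 0.997). The log2 fold change was 1.21 with the replicate number as a block and was also smaller in libraries 3 and 4 alone. The fitted libraries did not overlap, as the choice of the gene required. Vehicle library 2 rests on 1 UMI, under its limit of 277 CPM. A UMI was found in 28 of 33, 12 of 14, 32 of 54 and 14 of 25 macrophages with PBMCsec and in 4 of 5, 1 of 2, 18 of 36 and 10 of 19 with vehicle. Without the richest cell of each library the PBMCsec values were 1837, 627, 417 and 220 CPM. Vehicle libraries 1 to 4 were then at 158, 0, 160 and 146 CPM. The Cd209a cells of the same libraries stood at 620, 3861, 169 and 162 CPM with PBMCsec and at 0, 0, 20.4 and 24.4 CPM with vehicle.

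The other uncalled rises with the smallest p were Ctsl, Hk2, Hsph1, Tnfaip2, Apoe, Ctsb, Fcna and Socs3. Ctsl, a lysosomal protease, was at 2839, 1289, 897 and 1844 CPM with PBMCsec and at 534 and 538 CPM in vehicle libraries 3 and 4, but at 5457 CPM in vehicle library 1, which the fit did not use. Apoe and Ctsb had the same exception, with vehicle library 1 at 19303 and 11891 CPM. Hk2, Tnfaip2 and Fcna likewise overlapped once vehicle library 1 was counted, at 122, 244 and 244 CPM there. Without the richest cell of each library, Ctsl was at 1518, 759, 836 and 1282 CPM with PBMCsec. Vehicle libraries 1, 3 and 4 were then at 3857, 483 and 439 CPM for Ctsl. Its log2 fold change lay between 0.053 and 3.11 over the settings run. Socs3, an inhibitor of cytokine signalling, was at 153, 230, 209 and 108 CPM with PBMCsec and at 0, 0, 77.3 and 56.1 CPM with vehicle (log2 fold change 1.37, edgeR adjusted p = 0.997), although 0 in the smaller libraries lies under their 3-UMI limits of 122 and 277 CPM. Hsph1, a heat shock protein, was at 216, 238, 139 and 36.02 CPM against 0, 0, 14.0 and 33.6 CPM. Without the richest cell of each library, Hsph1 was at 115, 48.4, 110 and 29.3 CPM with PBMCsec. Vehicle libraries 3 and 4 were then at 7.35 and 12.8 CPM. Uncalled falls were Olfm1, Lgals7, Mrpl33, Tex261, Snrpf, Slamf9, Cenpx, Cnih4, Marc2 and Ndufb10. Olfm1 was at 89.1, 79.5, 56.6 and 64.8 CPM against 163, 92.4, 197 and 157 CPM, and Mrpl33, a mitochondrial ribosomal protein, at 119, 185, 126 and 151 CPM against 163, 462, 281 and 280 CPM. Neither gene overlapped in the fitted libraries, as the choice of the named falls required. Vehicle library 2 was under its 3-UMI limit for Olfm1, and Mrpl33 and the 8 other falls overlapped once vehicle libraries 1 and 2 were counted.

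In the edgeR fit, no list of genes held a called member. DESeq2 and limma called Ccl4, as given above. Lysosome and lipid genes had log2 fold changes above 0 for 18 of 22 tested members, with a median of 0.53 against -0.01 over all genes, and 8 of them did not overlap between groups in the 6 fitted libraries, where 6.31% of all genes were higher without overlap. Of these, Apoe, Ctsb and Ctsl overlapped once vehicle library 1 was counted. The summed lysosome and lipid list was at 53660, 47152, 43492 and 44451 CPM in PBMCsec libraries and 70207, 29195, 32325 and 34560 CPM in vehicle libraries, the highest being vehicle library 1, which the fit did not use. Median UMIs per macrophage were 7017, 7415.5, 3793 and 4739 in PBMCsec libraries and 7234, 5609, 3782.5 and 3880 in vehicle libraries, so the deeper cells of libraries 1 and 2 entered the fit from PBMCsec alone. The part of depth in these values was not tested. Chemokines were above 0 for 11 of 13 (median 0.67), inflammatory genes for 7 of 7 (0.53), interferon-stimulated genes for 13 of 16 (0.74), stress and immediate early genes for 13 of 16 (0.64) and alternative activation genes for 5 of 6 (0.53). MHC class II genes were above 0 for 1 of 9, with a median of -0.47, monocyte-type genes for 2 of 7 (-0.50), complement genes for 2 of 9 (-0.29) and cell cycle genes for 1 of 6 (-0.43). The resident perivascular list had 11 of 15 above 0 (0.29), identity genes 10 of 17 (0.08), scavenger genes 4 of 11 (-0.11), iron genes 6 of 9 (0.23), transcription factors 12 of 15 (0.22), receptors 7 of 15 (-0.13) and growth factor and matrix genes 6 of 13 (-0.07). These are medians of genes that edgeR did not call. The summed stress list was at 13555, 11450, 9467 and 4207 CPM in PBMCsec libraries and 3502, 4435, 4517 and 8175 CPM in vehicle libraries, and the part of dissociation stress in the uncalled rises was not tested.

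**Figure D5:**
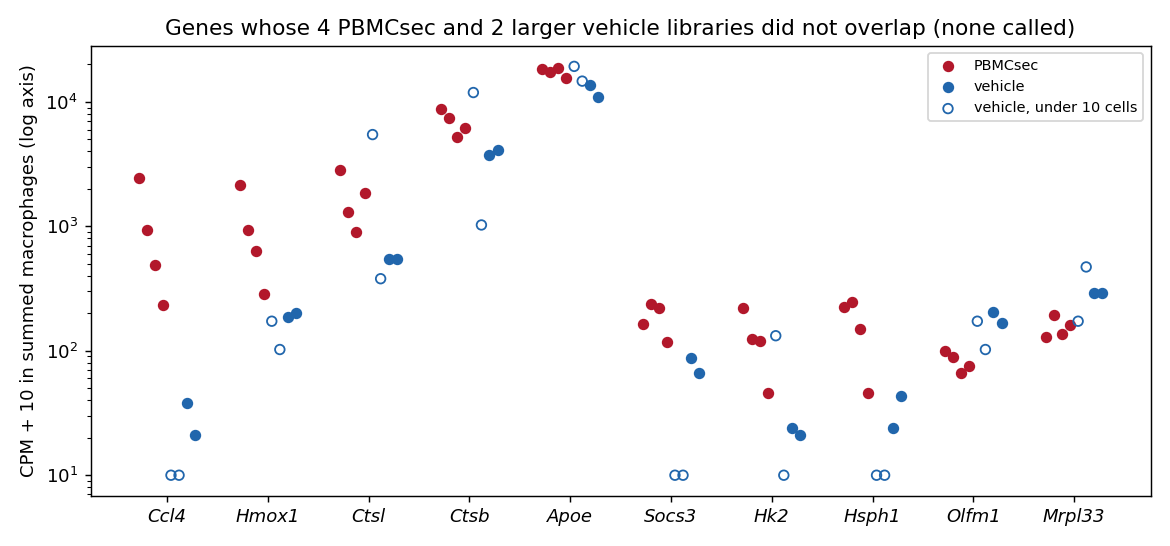
Levels of 8 rises and 2 falls, none called by edgeR, in the summed macrophages of each library, as CPM + 10 on a log axis. PBMCsec libraries 1 to 4 are in red and vehicle libraries 1 to 4 in blue, open where fewer than 10 cells were present. Ccl4 and Hmox1 were higher in the 4 PBMCsec libraries than in the filled points of vehicle libraries 3 and 4, as their choice required. The open point of vehicle library 1 was the highest for Ctsl, Ctsb and Apoe.

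A few genes had been picked from earlier results of these data. Stab1 was at 522, 388, 571 and 519 CPM with PBMCsec and at 367, 0, 435 and 292 CPM with vehicle (log2 fold change 0.47, edgeR adjusted p = 0.997). Fxyd2, a regulator of the sodium pump, was at 420, 291, 366 and 259 CPM against 122, 0, 414 and 135 CPM. Dab2, an endocytic adaptor, had a log2 fold change of -0.01 and overlapping groups. Clec4e, a pattern receptor, was too low to test, with 55.2 CPM as its highest value.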

How the data were processed

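Per the labels, reads were aligned to mm10 with Cell Ranger (3.0.2 in the submitters' processing notes, while the linked paper names another version) and deposited by the authors as UMI counts per gene and barcode, not normalized, 1 filtered matrix per library. The lower 5% mitochondrial limit follows the linked paper's methods. Gates were applied to each barcode, and UMI counts were summed over gated cells per library. CPM were computed from these sums after removal of Gm42418, Gm17056 and Gm26917. Collagen and keratin genes (Col1a1, Col1a2, Col3a1, Krt1, Krt5, Krt10, Krt14, Krtdap) were left out of tests, as were genes that chose the classes. No doublet caller was run. In an alternative, cells with a Cd3 UMI or over 1% keratin UMIs (mixed cells) were left out, 5 of them macrophages, and also of the denominator of the share.

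Sums were tested with edgeR 4.0.16 (quasi-likelihood, TMM, filterByExpr, Benjamini-Hochberg over all tested genes). DESeq2 1.42.0 and limma 3.58.1 (log2(CPM + 10) of each library's mean over cells) were alternatives, as were other gates, no filter on low counts, leaving out each library and the library number as a block. Code was tested on simulated data. Shares were tested by exact permutation over libraries. Libraries with under 10 gated cells did not enter the treatment fit. Gene positions are from GENCODE M21, which matched 30934 of 31053 identifiers. Members, lists and named genes were chosen with earlier results of these data known. Named genes were those of the gate, the 15 most abundant, members of fixed lists, the 10 largest called rises and falls per comparison and, where none was called, the 10 of each direction with the smallest unadjusted p among genes whose groups did not overlap. Genes only described for their unevenness were chosen after their values were seen. A few members of the lists are not reported here by name.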

Additional observations from a re-analysis of the deposited data

How the results depend on the processing

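The direction of the macrophage share, and of the 20 named genes each against Cd209a and against Cd207 cells, held under each alternative that gave a value. The share difference, 1.25 percentage points (unadjusted exact permutation p of 0.0571), had an unadjusted exact p of 0.0286 with a mitochondrial limit of 5% (0.911) and with all 3 C1q genes (1.04), the latter 0.057 after adjustment over both shares, and an unadjusted 0.0571 when mixed cells were left out of both macrophages and denominator (1.66). Of 4 alternatives added after seeing the data, thinning cells to 2000 UMIs first (1.26) and a denominator of macrophages, Cd209a and Cd207 cells (15.5) gave 0.0286, and a denominator of all barcodes (0.533) and no mitochondrial limit (1.16) gave 0.0571. It ranged from 1.02 to 1.51 with 1 library left out, and with the replicate number as a block it was 1.25 (4 of 4 pairs higher, exact p = 0.125). The subset share, 0.922 percentage points, became -0.414 with all 3 C1q genes and ranged from -12.4 to 14.3 with 1 library left out (-3.23 without PBMCsec library 1, -1.86 without PBMCsec library 3, -12.4 without vehicle library 4). Its blocked value was 3.63 over 2 pairs.

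The treatment test called 0 genes, and 0 with the replicate block. It called 1 with a 5% mitochondrial limit (Ccl8), 1 with DESeq2 (Ccl4), 1 with limma (Ccl4), 46 without the filter on low counts (34 higher, 12 lower), 1 with edgeR and 2 with DESeq2 on all 8 libraries, added after seeing the data (Ccl4, then Ccl4 and Hmox1), and 0 to 1 with 1 library left out (Igfbp7 without vehicle library 3, Ccl21a, which has near-identical copies, without vehicle library 4, both lower). In those fits 1 vehicle library remained, assumed to vary like the PBMCsec libraries. Libraries numbered 1 and 2 alone could not be fitted for lack of vehicle cells. Same-numbered libraries 3 and 4 correlated at 0.234 and 0.0777 in their deviations, over 2 pairs only. With 2 vehicle libraries, the values for other-numbered libraries were their exact negatives, so these correlations cannot decide on pairing. The number was used as a block in an alternative only. Hmox1 (2.47) was 1.21 with the replicate block and 1.30 in libraries 3 and 4. Stab1 (0.47) turned to -0.19 with limma and was 2.69 at the 5% limit, and Fxyd2 (0.29) lay between -0.22 and 1.30 when vehicle library 4 or 3 was dropped and was 1.80 at the 5% limit, while Dab2, near 0, turned positive in several settings (0.054 with all 3 C1q genes, 0.06 without the filter, 0.14 and 0.19 without PBMCsec libraries 1 and 2, -0.47 and 0.76 when vehicle library 4 or 3 was dropped, 0.55 with the block, 0.47 in libraries 3 and 4, 0.48 and 0.57 on all 8 libraries by edgeR and DESeq2, 1.63 at the 5% limit).

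Calls against Cd209a cells fell from 744 to 396 at the 5% limit and rose to 1479 without the filter, ranging from 574 to 740 with 1 library left out. Calls against Cd207 cells went from 1183 to 693 and 2370 in the same settings, and from 971 to 1228 with 1 library left out. Between the subsets, 66 calls became 39 with DESeq2, 126 without the filter, 108 when classes were set without thinning, and 37 to 90 with 1 library left out, 37 without PBMCsec library 3 and without vehicle library 3. The 5% limit left too few cells for that comparison. The causes were not tested. Cell numbers were small, at 188 macrophages, 7 of them in vehicle libraries 1 and 2.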
